A study of Mus musculus with 9 samples.

Results

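MTB, MTC, MTD and MTE elements are LTR retrotransposon remnants of the mouse genome, and their RNA was followed here in embryonic stem cells (ESCs) of mice without telomerase RNA and of WT mice. Members were taken by their annotated repeat name, as every row of the transposable element (TE) count table whose name began with MTB, MTC, MTD or MTE and whose family was ERVL-MaLR. The rule gave 22540 copies of 17 repeat names, which was 3.61% of the 623916 copies in the table. MTE names held 8134 copies, MTD names 7580, MTC names 4806 and MTB names 2020.

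The RNA came from 3 libraries each of G4 Terc-/- ESCs, G1 Terc-/- ESCs and WT ESCs, all of strain C57BL/6. Telomerase copies telomere repeats from the RNA that Terc encodes. G1 and G4 name the generation, without this RNA, of the embryos from which the early-passage cells came. Per the study's methods, the G1 line came from blastocysts of heterozygous crosses and the G4 line from knockout parents of the preceding generation, so cell line and generation cannot be told apart in this design. Feeder cells were removed before RNA was taken, and the labels do not say whether the libraries of a group came from separate cultures. The study's methods give fewer biological replicates per line than there are libraries, so some may share a culture, and the p-values measure the spread between these libraries, which may be technical.

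MaLR elements are non-autonomous relatives of the ERVL retroviruses, and they copied themselves with the proteins of other elements. A full element has an LTR at either end and an internal region between them, which the annotation names with the ending -int, and many copies are LTRs alone. The LTR carries a promoter and a polyadenylation signal, so an MT LTR can start or end a transcript of a nearby gene. MTA is the youngest group and is known for its high expression in mouse oocytes and early embryos. MTB to MTE are older, and an MTC LTR is known to start the oocyte form of Dicer1.

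The sequences below show what such copies look like, for 5 copies that changed in G4 ESCs and lie in exons of non-coding genes, where the GENCODE M21 transcripts (mm10) hold their bases. Each is written along the strand of the element. Capitals mark AATAAA, the usual polyadenylation signal. The MTEa piece is the end of the copy whose RNA rose most in this set, by Platr11, at chr9:118404304-118404384 on the + strand. The Gm13110 piece is the first 272 of 316 bases of an MTEa copy at chr4:154654789-154655060 on the - strand. The MTE2a copy by Gm4349 lies at chr3:95430692-95430955 on the - strand. The MTC copy by Snhg6 lies at chr1:9942781-9943056 on the + strand. The Gm17494 piece is the last 300 of 400 bases of an MTB_Mm copy at chr3:122256245-122256544 on the - strand.
MTEa, Platr11: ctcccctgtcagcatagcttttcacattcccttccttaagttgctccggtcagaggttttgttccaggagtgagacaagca
MTEa, Gm13110: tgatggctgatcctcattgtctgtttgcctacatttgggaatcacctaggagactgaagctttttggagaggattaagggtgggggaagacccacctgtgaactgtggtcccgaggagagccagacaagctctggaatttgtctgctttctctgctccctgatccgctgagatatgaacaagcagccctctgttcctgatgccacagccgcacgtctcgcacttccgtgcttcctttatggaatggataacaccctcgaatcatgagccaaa
MTE2a, Gm4349: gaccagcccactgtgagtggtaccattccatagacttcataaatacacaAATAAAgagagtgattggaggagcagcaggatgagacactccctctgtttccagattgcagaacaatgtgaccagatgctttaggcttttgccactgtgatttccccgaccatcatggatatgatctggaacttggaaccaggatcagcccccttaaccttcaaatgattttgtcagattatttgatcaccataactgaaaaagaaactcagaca
MTC, Snhg6: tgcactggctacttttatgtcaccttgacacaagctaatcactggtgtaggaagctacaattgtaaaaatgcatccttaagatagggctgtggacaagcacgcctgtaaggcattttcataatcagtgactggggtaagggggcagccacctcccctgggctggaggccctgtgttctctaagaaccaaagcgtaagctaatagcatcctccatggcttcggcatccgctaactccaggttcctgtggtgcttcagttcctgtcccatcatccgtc
MTB_Mm, Gm17494: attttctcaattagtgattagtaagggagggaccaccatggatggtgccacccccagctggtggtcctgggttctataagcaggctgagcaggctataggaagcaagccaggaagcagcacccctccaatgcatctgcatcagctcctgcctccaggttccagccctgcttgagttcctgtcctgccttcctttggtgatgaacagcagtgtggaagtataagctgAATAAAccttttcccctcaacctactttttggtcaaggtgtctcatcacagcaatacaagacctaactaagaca
The Gm13110 and Snhg6 copies open with the letters TG, and the Platr11, Gm4349 and Gm17494 copies close with CA, the ends that LTRs carry. AATAAA began at base 327 of the Gm17494 copy and at base 50 of the Gm4349 copy. The bases could be read for 922 of 20226 LTR copies, those that lie whole in 1 annotated exon, so they are not a random sample. Of these, 32.6% held AATAAA along the element's strand and 8.46% held it on the other strand. MTB stood highest, with 30 of 37 copies (81.1%) along the element's strand and none on the other. MTE2b stood lowest, with 22.3% of 94 copies. A match to these letters is a description of the sequence, and no transcript end was read from it.

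Most copies had few reads. The deposited values are estimated read counts per copy, with 918879 to 1137257 counts over all TE copies of a library, and 72.4% of the MTB to MTE copies had under 5 counts over the 9 libraries, against 70.5% of all copies. Together the members held 2.98%, 2.85% and 2.88% of the counts in G4 libraries, 2.75%, 2.75% and 2.79% in G1 libraries and 2.90%, 2.86% and 2.96% in WT libraries. The G4 and WT ranges overlapped, and their means differed by -0.00044 percentage points (exact permutation test, two-sided, p = 1). The 3 G1 libraries lay below the 3 WT libraries, with a difference of -0.137 percentage points (exact permutation test, two-sided, p = 0.1, the smallest that 3 against 3 libraries allow). Both values depended on which copies were counted. Outside exons the difference was 0.154 percentage points in G4 against WT (exact permutation test, p = 0.1) and 0.0505 in G1 against WT (p = 0.6), and over copies with whole values 0.225 (p = 0.1) and 0.0658 (p = 0.3). Copies over 5 kb from any gene held 0.139% of the counts in G4 and 0.0857% in WT libraries on average. Their difference was 0.0533 in G4 against WT (exact permutation test, p = 0.1) and 0.0161 in G1 against WT (p = 0.1). The sign of the G1 difference thus turned in each of these subsets.

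Most of the reads came from copies inside genes. Exonic copies, those with at least 0.5 of their length in exons, made up 5.63% of the member copies and held 50.5% of their counts, and copies in 3' UTRs alone held 39.5%. Intronic copies made up 66.0% of the copies and held 37.1% of the counts. Of the 14880 intronic copies, 9715 lay on the strand opposite to the gene and 5165 on the same strand. Copies over 5 kb from any annotated gene made up 14.6% of the copies and held 3.81% of the counts, against 8.01% of the counts of all TE copies. In bulk RNA, a change in such a count cannot be told apart from a change of the host transcript, of the share of cells that make it or of its level per cell.

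The state of the cells differed between the lines, as read through TE copies in exons of marker genes, since the table has no rows for genes. Values are CPM, the counts of a library set against its total as scaled by edgeR's TMM factors, so that libraries of different depth can be compared. The pluripotency list had such copies in 7 of its 14 genes, and its summed level was 24587 to 28885 CPM in G4, 11902 to 12779 CPM in G1 and 7964 to 8496 CPM in WT libraries. Most of this sum was Tdgf1, with 15444 to 18731 CPM in G4, 6259 to 6770 CPM in G1 and 4195 to 4514 CPM in WT libraries. Lin28a did not follow it, with 426 to 505 CPM in G4, 423 to 478 CPM in G1 and 499 to 506 CPM in WT libraries, and the G4 and WT ranges of Zfp42 overlapped. Pou5f1, Sox2 and Klf4 could not be read in this way. Primitive endoderm markers (4 of 8 genes read) summed to 56.2 to 81.5 CPM in G4, 359 to 407 CPM in G1 and 759 to 830 CPM in WT libraries, most of it Gata4 in G1 and WT libraries, with Dab2 at 0 in G4 and G1. Sparc, also on that list, went the other way, with 36.3 to 52.2 CPM in G4, 11.5 to 19.5 CPM in G1 and 8.35 to 13.6 CPM in WT libraries. Fibroblast markers were read in 5 of 12 genes. They summed to 127 to 133 CPM in G4, 85.9 to 117 CPM in G1 and 45.0 to 75.0 CPM in WT libraries. Most of this sum was Col1a1, which was highest in G4 and lowest in WT libraries without overlap, as was Fn1. Pdgfrb did not follow, with 9.90 to 15.6 CPM in G4, 11.02 to 21.9 CPM in G1 and 6.28 to 13.5 CPM in WT libraries. The ranges of Thy1 overlapped between all groups, and Dcn was at 0 in G4 and G1. Markers of 2-cell-like cells (4 of 8 genes read) summed to 26.1 to 50.4 CPM in G4, 0 to 2.09 CPM in G1 and 0 to 2.09 CPM in WT libraries. The pluripotency, primitive endoderm and fibroblast sums did not overlap between any of the 3 groups, while the 2-cell-like sum stood apart in G4 alone, with the same range in G1 and WT libraries. Their part in the results was not tested.

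Summed over all copies of a name, MTEa rose most and MTEb and its internal region fell most in G4 against WT ESCs. Of the 17 names, each of which was abundant enough to be tested, 4 rose (MTB, MTC-int, MTE2a and MTEa) and 5 fell (MTB-int, MTE2a-int, MTEa-int, MTEb and MTEb-int) at an edgeR quasi-likelihood p under 0.05 after Benjamini-Hochberg adjustment over the 853 names tested. Among all names the background was 23.1% higher and 23.4% lower, against 4 and 5 of 17 here. The rises were small, with a log2 fold change (log2FC, given as estimate ± SE) of 0.15 to 0.41, and the median of the 17 names was -0.05, against 0.00 for all names. With library totals in place of TMM scaling the split was 8 higher and 4 lower, against 286 and 136 of all 853 names. That scaling raised the log2FC of the 17 names by a median of 0.14, so the directions of the small changes depend on it. In G4 against G1 2 names rose and 6 fell, against a background of 19.5% and 23.0%. With library totals 7 rose and 4 fell there, against 260 and 101 of all 853 names.

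**Figure D1:**
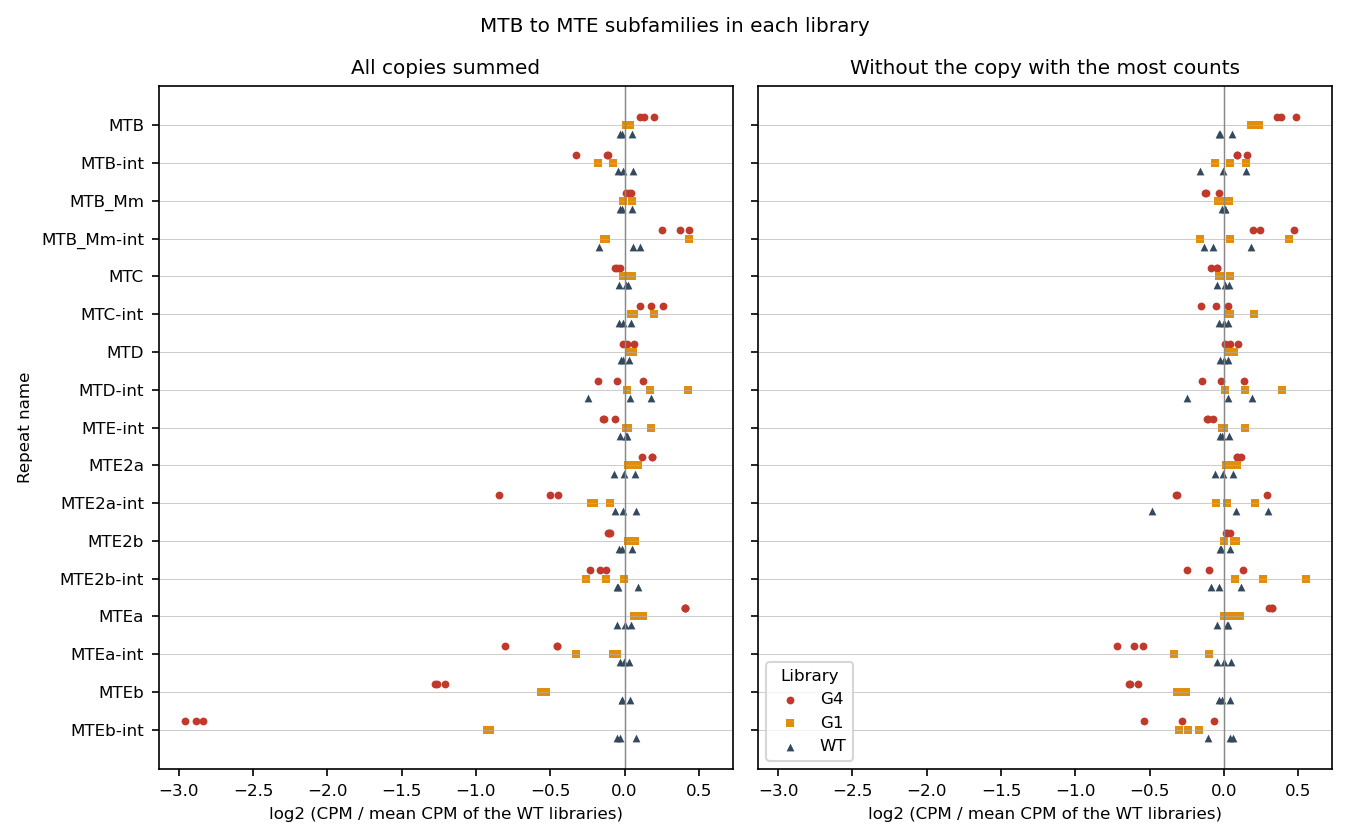
CPM of each of the 17 repeat names in each library, as log2 of its ratio to the mean of the 3 WT libraries, with the G4 (circles), G1 (squares) and WT (triangles) libraries of a name drawn from top to bottom. The left panel sums all copies and the right panel leaves out the copy with the most counts of each name. MTEb-int lies near -2.9 in G4 libraries on the left and much nearer to 0 on the right.

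MTEb-int, the internal region of MTEb, had 216, 198 and 209 CPM in G4, 813, 823 and 813 CPM in G1 and 1509, 1628 and 1491 CPM in WT libraries. No 2 groups overlapped, and G1 lay between G4 and WT. The log2FC was -2.89 ± 0.07 (adjusted p = 2.79e-18, edgeR) in G4 against WT and -0.92 ± 0.06 (adjusted p = 3.31e-10) in G1 against WT. A single copy held 90.9% of its counts. Without that copy, MTEb-int had 81.6, 70.4 and 58.8 CPM in G4, 72.3, 69.3 and 76.2 CPM in G1 and 89.2, 79.3 and 87.7 CPM in WT libraries, where G4 and WT overlapped, and the log2FC in G4 against WT was -0.30 (adjusted p = 0.126).

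MTEb LTRs had 1454, 1403 and 1391 CPM in G4, 2338, 2319 and 2283 CPM in G1 and 3321, 3454 and 3330 CPM in WT libraries. The order of the groups was the same as for MTEb-int, with no overlap, and the log2FC values were -1.25 ± 0.04 (adjusted p = 1.18e-15, edgeR) in G4 against WT and -0.54 ± 0.04 (adjusted p = 1.26e-08) in G1 against WT. These 2 names were the ones called in G1 against WT, both lower, against a background of 5.51% higher and 6.33% lower among all names. Outside exons, MTEb gave a log2FC of 0.11 in G4 against WT (adjusted p = 0.21), and over copies with whole values -0.02 (adjusted p = 0.81).

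MTEa LTRs had 2354, 2356 and 2354 CPM in G4, 1941, 1855 and 1885 CPM in G1 and 1829, 1720 and 1784 CPM in WT libraries. All 3 G4 libraries lay above the others, and the log2FC was 0.41 ± 0.04 (adjusted p = 1.81e-07, edgeR) in G4 against WT and 0.09 ± 0.04 (adjusted p = 0.235) in G1 against WT. The most abundant copy held 8.15% of these counts, and without it the log2FC was 0.31 (adjusted p = 2.47e-05), with another rising copy of the same 3' UTR, that of Tfcp2l1, still counted at 7.94% of the MTEa counts. Over copies outside exons it was -0.03 (adjusted p = 0.726). MTEa-int, its internal region, had 161, 205 and 205 CPM in G4, 267, 224 and 272 CPM in G1 and 281, 276 and 287 CPM in WT libraries, with a log2FC of -0.56 ± 0.10 (adjusted p = 0.000166), which over copies with whole values was -0.11 (adjusted p = 0.479). Outside exons MTEa-int gave -0.70 (adjusted p = 0.000413, edgeR), and without its most abundant copy -0.63 (adjusted p = 3.9e-05).

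MTE2a LTRs had 2363, 2471 and 2479 CPM in G4, 2269, 2210 and 2316 CPM in G1 and 2074, 2170 and 2287 CPM in WT libraries, a log2FC of 0.16 ± 0.05 (adjusted p = 0.00611, edgeR) in G4 against WT. The copy in the 3' UTR of Sdha, a subunit of succinate dehydrogenase, held 13.2% of these counts, and without it the value was 0.09 (adjusted p = 0.198). MTE2a-int had 163, 207 and 215 CPM in G4, 254, 274 and 251 CPM in G1 and 309, 280 and 290 CPM in WT libraries, a log2FC of -0.58 ± 0.10 (adjusted p = 7.09e-05). A copy in an exon of Nfx1, which encodes a zinc finger transcription factor, held 78.3% of it, and without that copy the value was -0.09 (adjusted p = 0.785).

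MTB LTRs had 2299, 2460 and 2347 CPM in G4, 2194, 2180 and 2157 CPM in G1 and 2113, 2094 and 2211 CPM in WT libraries, a log2FC of 0.15 ± 0.04 (adjusted p = 0.00908, edgeR) in G4 against WT. Its most abundant copy, in the 3' UTR of Hmmr, went the other way, and without that copy the value was 0.40 (adjusted p = 2.62e-06). A copy in the 3' UTR of Tfcp2l1, which rose, held 17.6% of the MTB counts and is still counted there. Outside exons MTB gave 0.07 (adjusted p = 0.493). Over copies with whole counts it was -0.03 (adjusted p = 0.728). Without G4 library 2 the adjusted p of MTB was 0.0527. MTC-int had 831, 746 and 786 CPM in G4, 724, 796 and 716 CPM in G1 and 716, 677 and 687 CPM in WT libraries, a log2FC of 0.18 ± 0.06 (adjusted p = 0.0229) that was lost without any 1 of G4 library 1, G4 library 3, WT library 2 or WT library 3 (adjusted p of 0.0515 to 0.0797). The fall of MTB-int, -0.18 ± 0.06 (adjusted p = 0.0174), was lost without G4 library 1 or WT library 2 (adjusted p of 0.098 and 0.0843) and with library totals (-0.05; adjusted p = 0.497), and the value was 0.13 outside exons and 0.10 without its most abundant copy. Over copies with whole values MTB-int was still called, at -0.39 (adjusted p = 0.0091, edgeR).

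The 2 most abundant names did not pass the test. MTD LTRs, with 7121 copies, had 7387, 7037 and 7180 CPM in G4, 7347, 7228 and 7362 CPM in G1 and 7034, 6982 and 7239 CPM in WT libraries (log2FC of 0.02 ± 0.03 in G4 against WT; adjusted p = 0.604, edgeR). MTC LTRs, with 4270 copies, had 4968, 5047 and 4916 CPM in G4, 5108, 5158 and 5321 CPM in G1 and 5234, 5023 and 5192 CPM in WT libraries (-0.05 ± 0.04; adjusted p = 0.267). MTB_Mm, MTB_Mm-int, MTD-int, MTE-int, MTE2b and MTE2b-int did not pass either, with log2FC values of -0.17 to 0.35. In all, leaving out the most abundant copy of each name left 4 of 17 names called in G4 against WT, 2 higher and 2 lower. Among all names that alternative left 279 of 758 called, 154 higher and 125 lower, against 397 of 853 with every copy.

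At the level of single copies, 376 of the 22540 members had enough reads to be tested, and they held 57.7% of the members' counts. In G4 against WT ESCs 90 of them rose and 63 fell, and 71 and 46 of these were past a fold of 2. Among all 13278 copies tested 21.3% were higher and 21.3% lower, against 23.9% and 16.8% of the members. The median log2FC was 0.01 for the members and -0.02 for all copies, and the libraries of the 2 groups did not overlap for 198 members (52.7%, against 52.2% of all copies). The shares of members that changed were thus near those of all copies. In simulated counts with G4 levels alone changed, falls of single copies were called less often than rises of the same fold. That simulation used a set spread and changed few copies, unlike these libraries, and members were not set apart in it. Nothing about the 90 rises and 63 falls can be drawn from it. Whether its difference between falls and rises holds for these libraries was not tested. In G4 against G1 83 rose and 76 fell, against a background of 19.0% and 19.2%, and these comparisons share their G4 libraries.

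In G1 against WT 14 members rose and 10 fell, and 7 and 3 of these were past a fold of 2. The background was 2.41% higher and 4.36% lower, against 3.72% and 2.66% of the members. These 24 calls were 14 without G1 library 1, 15 without G1 library 2, 15 without WT library 1 and 13 without WT library 2. Calls among all copies fell too, from 899 to 713, 655, 715 and 673 in that order. More members entered these fits, 417 to 442 against 376.

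**Figure D2:**
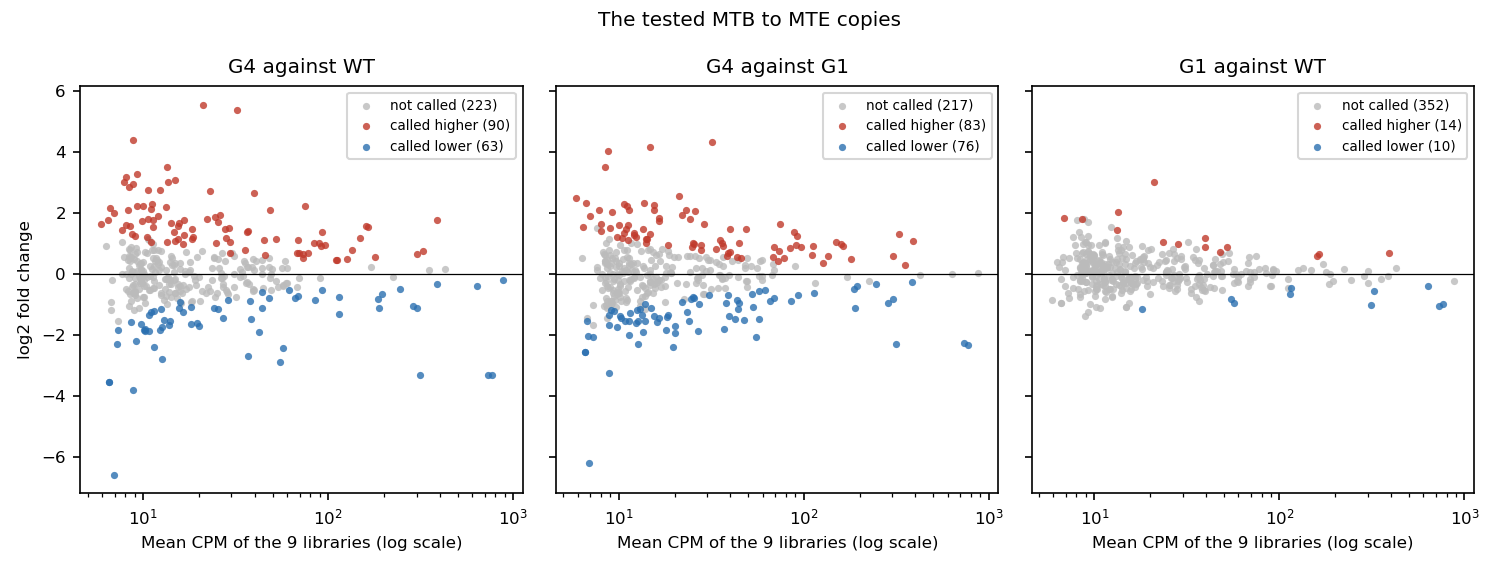
The log2FC of each of the 376 tested copies against its mean CPM over the 9 libraries (log scale), in G4 against WT, G4 against G1 and G1 against WT. Red points were called higher and blue points lower. In G4 against WT 90 are red and 63 blue, and in G1 against WT 14 are red and 10 blue.

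Calls were counted for LTRs and internal regions and for each name, beside 21.3% higher and 21.3% lower among all copies. Of the 319 LTR copies tested, 83 rose (26.0%) and 49 fell (15.4%) in G4 against WT, and of the 57 internal copies 7 rose (12.3%) and 14 fell (24.6%). MTEa LTRs had the most rises for their number, 12 of 24 tested, with 5 falls and a median log2FC of 0.84. MTE2a had 10 rises and 6 falls among 31, MTC 18 and 8 among 65, and MTD 22 and 13 among 111. The differences between these lists, and between them and all copies, were not tested. Among the other MaLR groups, 86 of 199 MTA copies rose and 25 fell, with a median log2FC of 0.66, and 75 of 220 ORR1A copies rose and 29 fell, with a median of 0.35. Of 311 ORR1B to ORR1G copies 99 rose and 52 fell, with a median of 0.28. All 901 tested MaLR copies outside the members had 33.2% higher and 16.1% lower. MLT copies, the oldest group set beside them, had 38 rises and 38 falls among 168.

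The largest rise was on chromosome 9. An MTE2a copy at chr9:118403453-118403836, 151 bp from the gene model 2610509F24Rik, had 37.4, 57.7 and 63.9 CPM in G4, 15.7, 6.21 and 5.51 CPM in G1 and 0, 2.09 and 0.962 CPM in WT libraries. It had 168 counts in G4 and 3 counts in WT libraries, a ratio per scaled library of 53.2 (95% counting interval 17.9 to 260; adjusted p = 4.21e-09, edgeR). It had 27 counts in G1 libraries, a ratio of 8.89 to WT (2.74 to 45.8; adjusted p = 0.00941). The MTEa copy beside it, at chr9:118404105-118404384 in an exon of Platr11, whose end is printed above, had 71.6, 87.9 and 110 CPM in G4, 0, 5.33 and 7.71 CPM in G1 and 4.17, 1.05 and 0.962 CPM in WT libraries. Platr11 is a long non-coding RNA named for its association with pluripotency. The log2FC of this copy was 5.39 ± 0.45 (adjusted p = 3.14e-10, edgeR) in G4 against WT and 1.05 ± 0.78 (adjusted p = 0.506) in G1 against WT. For each of these copies, all 6 tested TE copies of another name within 10 kb or in exons of the same gene rose too, with a median of 3.45, the other copy of this pair among them.

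The other large rises were at lower levels. An MTD copy at chr8:85589869-85590234, over 5 kb from any gene, had 19.8, 33.0 and 18.9 CPM in G4, 2.09, 0 and 2.20 CPM in G1 and 1.04, 0 and 1.92 CPM in WT libraries. With 75 counts in G4 and 3 in WT libraries its ratio was 23.7 (95% counting interval 7.82 to 118; adjusted p = 6.83e-06, edgeR), and the MERV1_LTR copy next to it gave a log2FC of 4.78. An MTEb copy at chr17:36967317-36967683, 1512 bp from the pseudogene H2-M6-ps, had 27.5, 26.6 and 29.7 CPM in G4, 15.7, 7.10 and 7.71 CPM in G1 and 0, 3.14 and 3.85 CPM in WT libraries. It rose in both comparisons with WT, by 3.49 ± 0.51 (adjusted p = 4.27e-06) in G4 and by 2.03 ± 0.60 (adjusted p = 0.0381) in G1, and stands against the fall of the MTEb sum.

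The 2 copies printed above for Gm13110 and Gm4349 rose with no overlap between G4 and the other libraries. The MTEa copy of Gm13110 had 29.7, 21.1 and 11.7 CPM in G4, 6.27, 7.10 and 1.10 CPM in G1 and 3.13, 2.09 and 0.962 CPM in WT libraries (log2FC of 3.26 ± 0.60 in G4 against WT; adjusted p = 9.64e-05, edgeR). The MTE2a copy of Gm4349 had 31.9, 35.7 and 45.9 CPM in G4, 1.05, 0.888 and 4.41 CPM in G1 and 1.04, 7.32 and 4.81 CPM in WT libraries (3.08 ± 0.43; adjusted p = 2.66e-06). Both genes are annotated as non-coding, and Gm4349 runs on the strand opposite to the copy. An MTB_Mm copy at chr1:120088345-120088679, 14271 bp from Tmem37, gave 3.01 ± 0.46 (adjusted p = 7.01e-06), and an MTB copy in the 3' UTR of Oas3, an interferon-induced oligoadenylate synthetase, gave 2.86 ± 0.60 (adjusted p = 0.000375). The Oas3 transcript is annotated to end inside that MTB copy.

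The last 2 of the printed copies moved in opposite directions. The MTC copy by Snhg6, a host gene of small nucleolar RNAs, had 59.5, 54.9 and 58.5 CPM in G4, 32.4, 22.2 and 32.0 CPM in G1 and 20.9, 26.2 and 20.2 CPM in WT libraries (log2FC of 1.36 ± 0.23 in G4 against WT; adjusted p = 2.84e-05, edgeR). The MTB_Mm copy by Gm17494 had 3.30, 1.83 and 4.50 CPM in G4, 12.5, 14.2 and 13.2 CPM in G1 and 17.7, 16.7 and 18.3 CPM in WT libraries (-2.41 ± 0.45; adjusted p = 0.000111). Neither was called in G1 against WT (0.35 ± 0.25 with adjusted p = 0.486, and -0.40 ± 0.36 with adjusted p = 0.609).

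**Figure D3:**
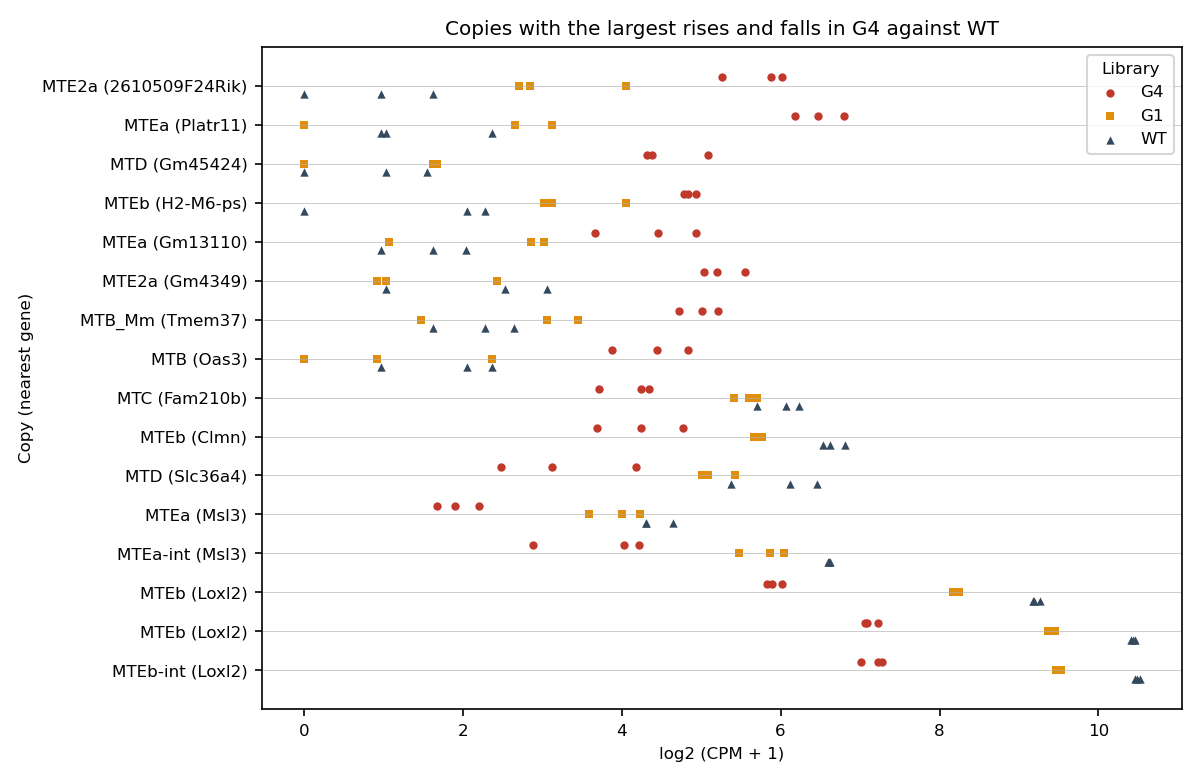
CPM on a log2(CPM + 1) scale of the 8 copies with the largest rises (top) and the 8 with the largest falls (bottom) in G4 against WT, each named with its nearest gene, in every G4 (circles), G1 (squares) and WT (triangles) library. For the 3 Loxl2 copies at the bottom the 3 groups stand apart, with G1 between G4 and WT.

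The largest falls lay in the 3' UTR of Loxl2 on chromosome 14, which encodes a lysyl oxidase that crosslinks collagen. The MTEb-int copy at chr14:69694010-69694554 had 149, 128 and 154 CPM in G4, 707, 734 and 735 CPM in G1 and 1427, 1472 and 1408 CPM in WT libraries. The MTEb LTR next to it, at chr14:69694554-69694884, had 149, 135 and 132 CPM in G4, 656, 660 and 699 CPM in G1 and 1401, 1354 and 1385 CPM in WT libraries. A second MTEb LTR, at chr14:69693737-69693895, had 63.9, 58.6 and 55.8 CPM in G4, 302, 288 and 289 CPM in G1 and 577, 614 and 581 CPM in WT libraries. The 3 copies lie on the strand opposite to the gene, and their values moved alike, with log2FC values of -3.32 ± 0.09, -3.32 ± 0.09 and -3.31 ± 0.11 in G4 against WT and -0.99, -1.04 and -1.01 in G1 against WT. Each was called in all 3 comparisons (edgeR, adjusted p of at most 7.30e-08).

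The 3 other tested TE copies in exons of Loxl2, none of them an MTB to MTE element, fell as well, with a median of -3.21. These 2 LTRs held 30.8% and 13.3% of the MTEb counts and the internal copy 90.9% of those of MTEb-int, so these 3 copies made up a large part of both falls. Without the largest one of each name, MTEb gave -0.63 in G4 against WT (adjusted p = 8.02e-10), with the second LTR still counted, and MTEb-int was no longer called. The counts of the 3 copies are not whole numbers, and how reads shared between copies were divided is not known here. An MTE2a copy in an intron of Loxl2 and one in an intron of Gm16867 on the same chromosome held identical values in every library and are 1 observation.

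The next falls were on chromosome X, near Msl3, which encodes a subunit of a histone acetyltransferase complex. The MTEa-int copy at chrX:168651560-168653078 had 17.6, 6.41 and 15.3 CPM in G4, 64.8, 43.5 and 57.3 CPM in G1 and 96.0, 96.3 and 97.1 CPM in WT libraries, a log2FC of -2.89 ± 0.25 (adjusted p = 6.52e-10, edgeR) in G4 against WT and -0.81 ± 0.20 (adjusted p = 0.00954) in G1 against WT. It held 22.4% of the MTEa-int counts. The MTEa LTR at its side, at chrX:168653082-168653429, had 2.20, 2.75 and 3.60 CPM in G4, 17.8, 15.1 and 11.0 CPM in G1 and 18.8, 18.8 and 24.0 CPM in WT libraries, and fell in G4 against WT by 2.78 on the log2 scale. The tested copies of MTEa thus moved both ways, with 12 rises and 5 falls. The most abundant MTEa-int copy, in an intron of Larp1b, gave -0.30 ± 0.20 (adjusted p = 0.249).

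The other 3 copies of the largest falls lie in 3' UTRs. The MTD copy of Slc36a4, an amino acid transporter gene, gave -2.70 ± 0.34, the MTEb copy of Clmn gave -2.44 ± 0.22 and the MTC copy of Fam210b gave -1.92 ± 0.24 (adjusted p of 4.57e-07, 1.43e-09 and 4.01e-07, edgeR). The Clmn copy had 26.4, 11.9 and 18.0 CPM in G4, 53.3, 53.3 and 49.6 CPM in G1 and 91.8, 97.3 and 112 CPM in WT libraries, and the 7 tested TE copies of another name around it fell too. The Fam210b copy was at 12.1 to 19.2 CPM in G4, 41.7 to 51.2 CPM in G1 and 51.0 to 74.1 CPM in WT libraries.

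Tfcp2l1, a transcription factor of naive pluripotency and a member of the marker list above, holds 3 tested members in its 3' UTR. The MTB copy at chr1:118681371-118681737 averaged 660 CPM in G4, 314 CPM in G1 and 194 CPM in WT libraries and rose by 1.77 on the log2 scale. The MTEa copy at chr1:118681956-118682055, the most abundant of its name, had 262, 279 and 243 CPM in G4, 119, 162 and 134 CPM in G1 and 114, 82.7 and 72.1 CPM in WT libraries, with log2FC values of 1.55 ± 0.15 (adjusted p = 5.66e-09, edgeR) in G4 against WT and 0.64 ± 0.16 (adjusted p = 0.011) in G1 against WT. The third, an MTEa copy at chr1:118681233-118681370, had 258, 243 and 277 CPM in G4, 117, 132 and 145 CPM in G1 and 90.8, 84.7 and 84.6 CPM in WT libraries, and rose by 1.58 on the log2 scale. The 11 other tested TE copies in exons of Tfcp2l1, none of them an MTB to MTE element, all rose in G4 against WT, with a median of 1.73.

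The other most abundant copies of called names lay in other genes. The MTE2a copy of Sdha had 349, 425 and 407 CPM in G4, 262, 254 and 273 CPM in G1 and 225, 244 and 275 CPM in WT libraries (log2FC of 0.67 ± 0.11 in G4 against WT; adjusted p = 1.98e-05, edgeR), and the Sdha transcript is annotated to end inside it. The MTE2a-int copy of Nfx1 fell by 0.65 ± 0.12 on the log2 scale (adjusted p = 0.000101). The 3 other tested TE copies in exons of Nfx1, none of them an MTB to MTE element, were not called, with a median of -0.20. The MTC-int copy at chr7:75773901-75774383 in an intron of the long non-coding RNA AU020206 had 257, 216 and 223 CPM in G4, 115, 113 and 108 CPM in G1 and 114, 95.2 and 97.1 CPM in WT libraries, a log2FC of 1.18 ± 0.13 (adjusted p = 3.08e-08), and all 16 tested copies of another name around it rose. Without it MTC-int gave -0.07 (adjusted p = 0.445).

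In the 3' UTR of Hmmr, a hyaluronan receptor that also acts at the mitotic spindle, the MTB copy had 600.1, 548 and 569 CPM in G4, 609, 569.8 and 539 CPM in G1 and 769, 716 and 790.5 CPM in WT libraries, and fell alike in both comparisons with WT (-0.41 ± 0.09 in each; adjusted p = 0.000479 in G4 and 0.00355 in G1, edgeR). The MTB-int copy beside it, with 776, 851 and 887 CPM in G4, 866, 779 and 841 CPM in G1 and 944, 979 and 973 CPM in WT libraries, gave -0.20 ± 0.08 (adjusted p = 0.046) in G4 against WT. That call was lost under 9 alternatives, among them library totals and the fits without G4 library 1, G4 library 2 or WT library 2 (adjusted p of 0.061 to 0.615). The MTE2b copy of Ncl, which encodes nucleolin, fell in G4 against WT by 1.12 on the log2 scale but not in G1 against WT (0.01 ± 0.12; adjusted p = 0.985), and the MTE-int copy of Cbx5, which encodes the heterochromatin protein HP1 alpha, gave -0.09 ± 0.12 (adjusted p = 0.586).

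Some members changed in G1 ESCs. The MTEa copy in the 3' UTR of Dkk3, a secreted protein of the Dickkopf family, had 73.8, 76.0 and 86.4 CPM in G4, 32.4, 29.3 and 23.1 CPM in G1 and 9.39, 9.42 and 18.3 CPM in WT libraries, with log2FC values of 2.65 ± 0.25 (adjusted p = 4.57e-09, edgeR) in G4 and 1.18 ± 0.29 (adjusted p = 0.0121) in G1 against WT. The MTD copy of Adal had 40.7, 40.3 and 28.8 CPM in G4, 32.4, 25.7 and 37.5 CPM in G1 and 16.7, 15.7 and 15.4 CPM in WT libraries, so that G4 and G1 overlapped and both lay above WT. The MTEa copy in an intron of Nphs1 was highest in G1, with 16.5, 9.16 and 20.7 CPM in G4, 42.9, 33.7 and 35.3 CPM in G1 and 17.7, 9.42 and 26.0 CPM in WT libraries (1.05 ± 0.32 in G1 against WT; adjusted p = 0.046). Plod3 encodes a lysyl hydroxylase, and its intronic MTD copy fell in G1 against WT by 1.14 on the log2 scale (adjusted p = 0.0275). Timm17a encodes a mitochondrial import protein, and the MTC copy in its 3' UTR fell in G4 against G1 by 2.40 on the log2 scale (adjusted p = 2.2e-05).

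Leaving out 1 library ended several of these G1 calls. The rise by Dkk3 was lost without G1 library 1, WT library 1 or WT library 2 (adjusted p of 0.0701 to 0.0876, edgeR), that by Adal without G1 library 1, G1 library 3 or any 1 WT library (0.0711 to 0.153), and that by Nphs1 without any 1 G1 library, WT library 1 or WT library 2 (0.0739 to 0.239). The fall by Plod3 was lost without any 1 G1 library, WT library 1 or WT library 2 (0.0565 to 0.163), and that of the MTEa-int copy by Msl3 without G1 library 2 (0.0779). The rise of the MTE2a copy on chromosome 9 was lost without G1 library 1 or WT library 1 (0.0917 and 0.0557), that by H2-M6-ps without G1 library 1, G1 library 3, WT library 1 or WT library 2 (0.0547 to 0.212), and that of the most abundant MTEa copy of Tfcp2l1 without G1 library 2, WT library 2 or WT library 3 (0.0772 to 0.125). The calls of the 3 Loxl2 copies and of the MTB copy of Hmmr in G1 against WT were kept without each of the libraries.

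Exonic members were set beside the rest of their host transcripts. Of the 207 exonic members tested, 147 shared a gene's exons with at least 1 other tested TE copy that is not of these names, in 123 genes. Of these, 73 were called in G4 against WT, and for 61 of them a neighbour was called the same way, and for 2 a neighbour was called the opposite way (an MTE2b copy in Inip and an MTD-int copy in Zfp101). Counted by pairs of a member and a neighbour, in which a neighbour recurs where a gene holds several members, 173 pairs had the same direction, 3 had opposite directions and in 71 the neighbour was not called. Pearson's r between the member and the median of its neighbours was 0.879 and Spearman's rho 0.845 over the 147 copies, which share libraries and transcripts and are no replicates.

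**Figure D4:**
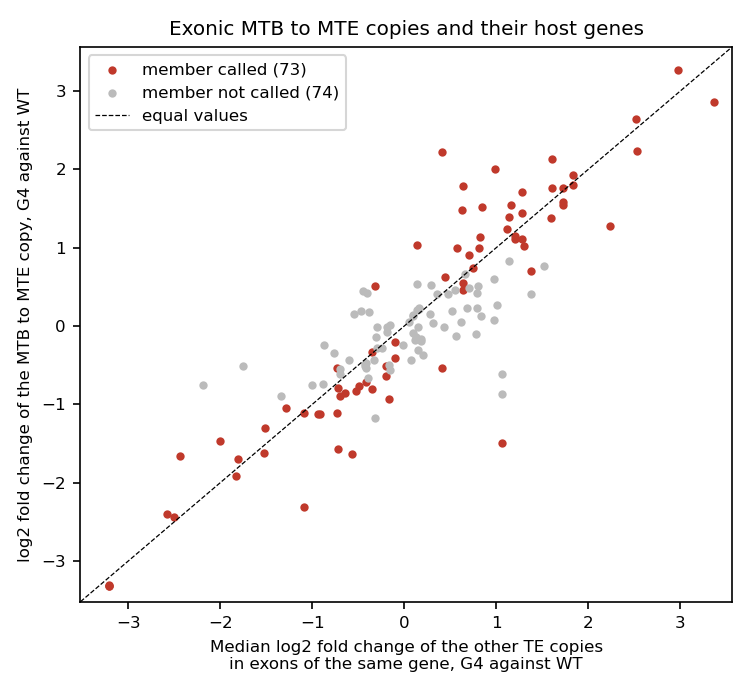
The log2FC in G4 against WT of 147 exonic MTB to MTE copies (vertical) against the median log2FC of the other tested TE copies in exons of the same gene (horizontal). The 73 red points were called and the dashed line marks equal values, along which most points lie (Pearson's r = 0.879).

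By place, 57 of the 207 exonic members rose (27.5%) and 39 fell (18.8%) in G4 against WT, against 20.5% and 21.7% of all exonic copies. Of 112 intronic members 17 rose and 10 fell. Intronic members were called in 15.2% (higher) and 8.93% (lower), against 19.5% and 17.7% of all intronic copies. Of the 46 members within 5 kb of a gene, 10 rose (21.7%) and 13 fell (28.3%), against 27.1% and 21.7% of all copies so placed. Of the 11 members over 5 kb from any gene 6 rose and 1 fell, against 25.3% and 30.2% of all copies so placed. None of these differences was tested. A transcript was annotated to end within the copy on its own strand for 43 tested members, and 16 of these rose and 6 fell. A transcript start within the copy on its own strand was annotated for 94 members, of which 4 could be tested and 2 rose. Shares over all TE copies with an annotated end or start were not counted, so these numbers are a description only.

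**Figure D5:**
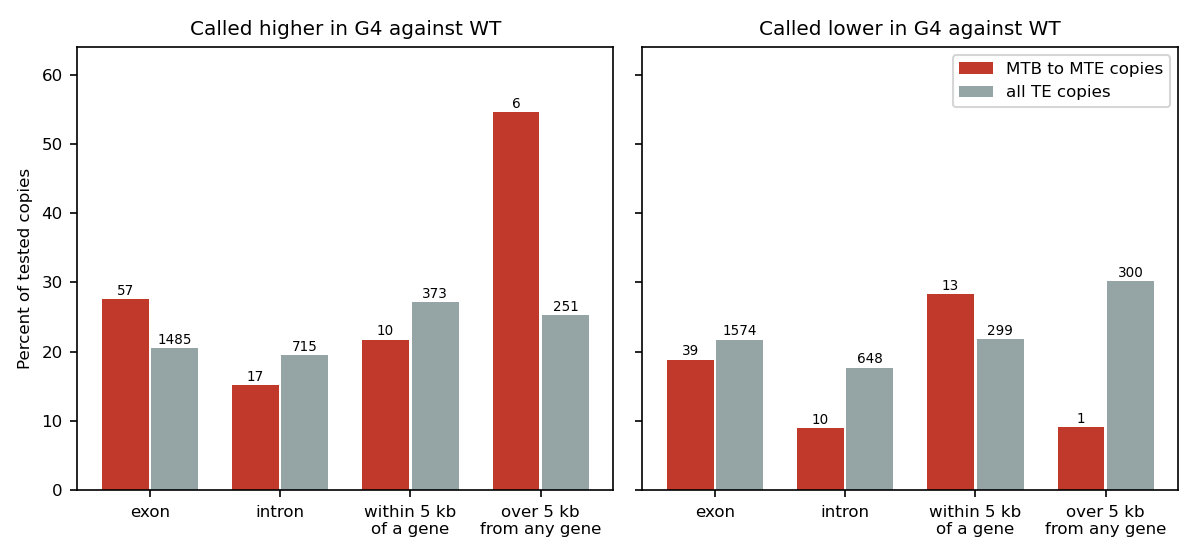
Percent of the tested copies called higher (left) and lower (right) in G4 against WT, for MTB to MTE copies (red) and all TE copies (grey) in exons, in introns, within 5 kb of a gene and over 5 kb from any gene, with the number of calls above each bar. In exons 57 MTB to MTE copies were higher and 39 lower, and far from genes 6 were higher and 1 lower.

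The MTC copy within Dicer1 had few reads in these cells. At chr12:104727225-104727621, on the strand of the gene, it had 10 counts in the 3 G4 libraries, 4 in the 3 G1 libraries and 7 in the 3 WT libraries, too few for the test. The MTE2b, MTE2a and MTD copies within Dicer1 had 7, 1 and 0 counts in G4, 4, 4 and 0 counts in G1 and 7, 3 and 1 counts in WT libraries. A difference between the groups was not detectable at this depth.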

How the data were processed

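The 9 mouse ESC libraries comprised 3 from each line (G4 Terc-/-, G1 Terc-/- and WT), made from total RNA with the TruSeq RNA kit. The submitters' processing notes name FastQC 0.11.9, the aligner STAR 2.5.3a, featureCounts and mm10. The estimated count values deposited by the authors are expected counts per TE copy. A value that is not whole occurs in 55092 copies, 884 of them MTB to MTE copies, and how shared reads were divided is not given in the sources used here. The deposited signal values are rounded counts divided by 1 size factor per library, and served to check that relation. Columns named Control were taken as WT. Per the study, the G4 line lacks part of chromosome 6. The whole chromosome holds 1139 member copies, 15 of them tested.

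Starts in the file count from 0 and were raised by 1. Copies were placed against 55536 GENCODE M21 gene models with bedtools 2.31.1. After rounding, filterByExpr and TMM scaling, edgeR 4.0.16 in R 4.3.3 gave quasi-likelihood tests from a single model of the 9 libraries with no block, once for copies and once for sums per repeat name. Tests were two-sided, and Benjamini-Hochberg adjustment ran over the whole table with a threshold of 0.05. Each SE was derived as the absolute log2FC divided by the root of the F statistic. CPM of names and of copies are scaled apart. The fits were tested on simulated data with only G4 levels changed and a spread that was set rather than fitted. Falls of single copies were called less often there than rises of the same fold, in a setting that differs from these libraries. Alternatives were DESeq2 1.42.0, other scalings and filters, a replicate block, subsets of copies (outside chromosome 6 among them) and leaving out each library.

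The members and lists were chosen with earlier results of these data known. Named were the most abundant name of each of the MTB, MTC, MTD and MTE groups, the 3 largest rises and falls of names with a mean of at least 50 counts, the 8 largest rises and falls of copies in G4 against WT and the 3 largest in each other comparison (called, no overlap, a mean of at least 20 counts in the higher group), the most abundant copy of each called name, the 3 most abundant copies and the copies within Dicer1. The sequences shown and the copies of Tfcp2l1 beside its most abundant MTEa copy were chosen after values were seen. Counting intervals are exact and cover counting error only. Library totals of 918879 to 1137257 counts limited the test to 1.67% of the member copies.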

Additional observations from a re-analysis of the deposited data

How the results depend on the processing

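Of the copies, 153 were called between G4 and WT, 24 between G1 and WT and 159 between G4 and G1, and the alternatives below are given in that order. Of all 13278 copies tested, 5648, 899 and 5076 were called. With copies outside exons alone the calls were 54, 3 and 59 of 169 members, against 2450, 317 and 2249 of 6036 copies in all. With copies over 5 kb from any gene they were 6, 0 and 6 of 11 members, against 496, 76 and 483 of 992 copies. Fewer copies entered these fits. With a fold over 2 beside the adjusted p, G1 against WT had 10 calls and G4 against G1 had 105, and with no filter beyond 1 count 7 and 103. Among all copies the fold gave 429 and 3487 calls, and no filter 462 and 3802. G1 against WT had 15 calls among copies with whole values and 15 by the DESeq2 Wald test, which gave no adjusted p for 180 members. All copies gave 555 and 587 calls there. Without 1 library the calls ranged over 137 to 158 in G4 against WT, 13 to 18 in G1 against WT and 129 to 150 in G4 against G1. Among all copies the same fits called 5122 to 5605, 655 to 715 and 4383 to 4936.

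The 9, 2 and 8 names called in the same comparisons were 3, 0 and 1 outside exons, 2, 0 and 0 over 5 kb from genes, 3, 0 and 5 over copies with whole values, 2, 0 and 1 with a fold over 2 (beside the adjusted or the unadjusted p), and 4, 1 and 4 without the most abundant copy of each name, an alternative added after seeing the data. Without 1 library they were 7 to 9, 2 to 2 and 6 to 10. Among all names the main fits called 397, 101 and 362 of 853. Outside exons this was 246, 22 and 207 of 773, and over 5 kb from genes 128, 23 and 115 of 388. Over copies with whole values it was 297, 40 and 256 of 837, and with a fold over 2 beside the adjusted p 76, 3 and 54. Without the most abundant copies it was 279, 42 and 214 of 758. The share of library counts differed between G4 and WT by 0.225, 0.0533 and 0.154 percentage points over copies with whole values, over 5 kb from genes and outside exons, against -0.00044 over all copies. Between G1 and WT it differed by 0.0658, 0.0161 and 0.0505 in the same order, against -0.137 over all copies. Without 1 library these differences were -0.0382 to 0.027 for G4 and -0.16 to -0.11 for G1. The causes were not tested.

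The log2FC of some names changed sign. In G4 against WT these were MTB (-0.030 with whole values, -0.13 far from genes), MTB-int (0.13 outside exons, 0.10 without its top copy), MTC (0.086 with library totals), MTC-int (-0.11 with whole values, -0.10 far from genes, -0.070 without its top copy), MTEa (-0.032 outside exons), MTEa-int (0.032 far from genes) and MTEb (0.45 far from genes, 0.11 outside exons). In G4 against G1 these were MTB (-0.14 with whole values), MTB_Mm (0.14 with library totals), MTC-int (-0.24 with whole values), MTD (0.12 with library totals), MTE-int (0.072 far from genes), MTE2b (0.011 outside exons), MTEa (-0.0100 outside exons), MTEb (0.074 with whole values, 0.20 far from genes, 0.089 outside exons) and MTEb-int (0.0098 outside exons). In G1 against WT MTEb gave 0.25 far from genes and 0.02 outside exons. No called value of a named copy changed sign under the alternatives run. For named copies in G4 against WT, 177 of 180 values without 1 library and 256 of 264 under the other settings kept direction and side of the threshold.

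Libraries with the same number did not deviate together (correlations of -0.0139 to 0.0186), so the numbers do not pair them. With a replicate block the calls were 149, 19 and 149 copies and 9, 2 and 8 names. Among all copies they were 5465, 796 and 4834, and among all names 391, 85 and 353. At this depth, copies with few reads such as those in Dicer1 stayed below what the test can show.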
